A study of Rattus norvegicus with 4 samples.

Results

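Rats aged 21 months with intracerebral hemorrhage (bleeding inside the brain) were the source of 1 pair of libraries, in which polyadenylated RNA from tissue of the bleeding side (ipsilateral) was set against tissue of the opposite side (contralateral), gene by gene. A gene was a member if its RPKM, a read density per kilobase scaled to library size, averaged 1 or more across the series' 4 libraries, which gave 12160 of the 17853 genes deposited. The series has 4 groups of 1 library each: ipsilateral and contralateral tissue of rats aged 13 months, called adult, and of rats aged 21 months, called old. All rats had a hemorrhage, so the opposite side served as the control and no group came from uninjured rats. Each library was made from pooled RNA of several brains, which averages over animals and leaves no measure of how they differed. No source used here states the strain, the sex, the way the hemorrhage was made, the time after it or the brain region taken. With 1 library per side the ratios below carry no error and no test, and the 13 month libraries stand beside them as separate values.

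After a bleed, red cells break down in the tissue, and the heme and iron they release are toxic to neurons and glia. Microglia and incoming monocytes take up the debris, make chemokines that draw further leukocytes, and break down heme through heme oxygenase. Astrocytes around the lesion enlarge and raise intermediate filaments, while neurons and their synapses can be lost. In bulk tissue, fewer cells of a type and less RNA per cell cannot be told apart.

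Values were compared as log2((ipsilateral RPKM + 1)/(contralateral RPKM + 1)), called the side ratio here. A side ratio of 1 is a 2-fold difference for a well expressed gene, and the added 1 RPKM makes it an understatement for low genes. At 21 months 682 genes (5.61% of 12160) had a side ratio of at least 1 and 35 (0.288%) had -1 or less. The ratio was at least 2 in 147 genes, at least 3 in 33 and at least 4 in 11. Of all genes 60.8% were above 0 and the median was 0.09, but this lean depends on the scaling of the libraries: the all-gene median was -0.0118 with median-ratio scaling and -0.0106 with equal sums over nuclear genes. The 25th and 75th percentiles were -0.11 and 0.34, an interquartile range of 0.45. For comparison, the contralateral libraries of both ages differed from each other with an interquartile range of 0.17. The 682 higher genes took 5.49% of the RPKM sum of the ipsilateral library and 1.61% of the contralateral one. They were found at every level of expression, from 73 of 1429 genes between 1 and 2 RPKM to 30 of 505 genes above 100 RPKM. The tissue label fits the marker genes: neuronal Rbfox3 (101 RPKM ipsilaterally and 118 RPKM contralaterally) and Snap25 (397 and 389.6 RPKM), myelin Mbp (1025 and 916 RPKM) and astrocytic Aqp4 (135 and 94.8 RPKM) were all present.

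**Figure D1:**
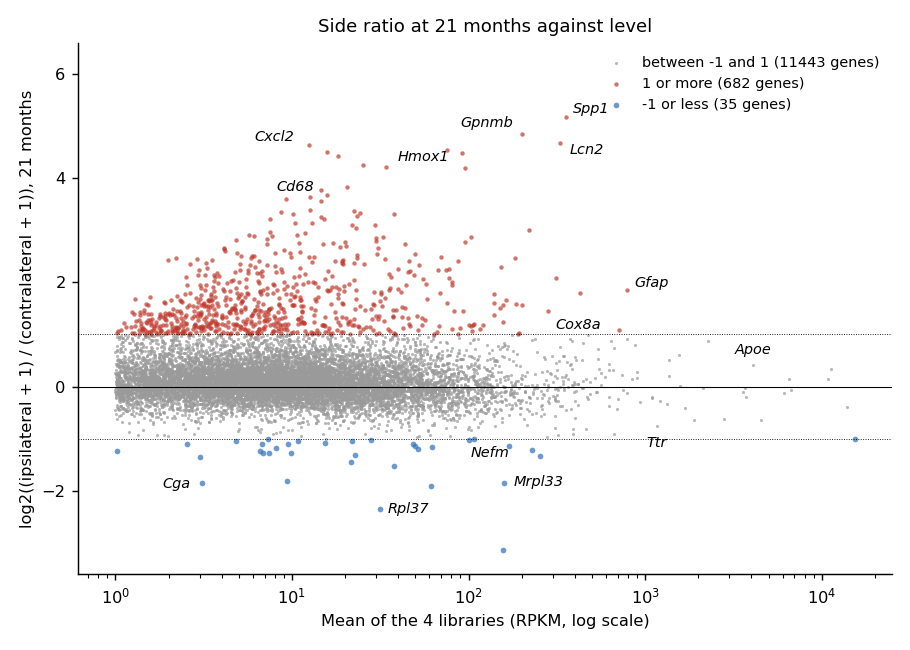
Each point is 1 of 12160 genes, with its mean RPKM over the 4 libraries on a log axis and its side ratio at 21 months on the vertical axis; dotted lines mark 1 and -1. The 682 red genes reach up to 5.18 (Spp1), while the 35 blue genes are few and reach -2.35 (Rpl37) among genes with a proper name.

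Secreted and surface proteins of phagocytes led the list. Spp1, which encodes the secreted glycoprotein osteopontin, stood at 488 RPKM ipsilaterally and 12.5 RPKM contralaterally, with 901 and 26.1 RPKM in the 13 month libraries. Gpnmb, a transmembrane glycoprotein of phagocytes loaded with debris, stood at 327 and 10.5 RPKM, with 445 and 21.4 RPKM at 13 months. Lcn2, a lipocalin that binds bacterial iron carriers and is made by reactive astrocytes and neutrophils, stood at 539.6 and 20.2 RPKM, with 723 and 37.6 RPKM at 13 months. For each of these 3 genes both libraries of the bleeding side were far above both of the opposite side. The ipsilateral level of each was lower at 21 than at 13 months, and so was the contralateral one, so that the side ratios of 5.18, 4.84 and 4.68 at 21 months were no smaller than those of 5.06, 4.32 and 4.23 at 13 months. In RPKM without the added 1, the differences at 21 months were 39.0-fold for Spp1, 31.2-fold for Gpnmb and 26.8-fold for Lcn2.

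Hmox1, the inducible heme oxygenase that opens the heme ring and frees its iron, had the highest ratio among genes that act on heme itself. It stood at 189 RPKM ipsilaterally and 7.52 RPKM contralaterally, with 169 and 4.51 RPKM at 13 months, side ratios of 4.48 and 4.95. Lgals3, a galectin of activated macrophages, stood at 127 and 4.54 RPKM, a side ratio of 4.53. Fabp4, a fatty acid carrier of macrophages and fat cells, stood at 29.1 and 0.62 RPKM, with 105 and 1.25 RPKM at 13 months. Its ipsilateral level was thus among the most different between the ages in this group, and its side ratio was 4.22 against 5.56. The other genes of the highest 25 were chemokines (Cxcl2, Ccl7, Ccl3, Cxcl13, Ccl2, Pf4), the cytokine Il1b, receptors of myeloid cells (Cd300le, Lilrb4, Cd14, Msr1, Clec7a), the lysosomal glycoprotein Cd68, the oxidase subunit Cyba, the proteoglycan Sdc1, the cytidine deaminase Apobec1, the protease inhibitor Slpi, the actin capping protein Capg and the G protein subunit Gngt2. In all of these 25 genes both ipsilateral libraries were above both contralateral ones, as they were in 676 of the 682 higher genes and in 34.4% of all genes.

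**Figure D2:**
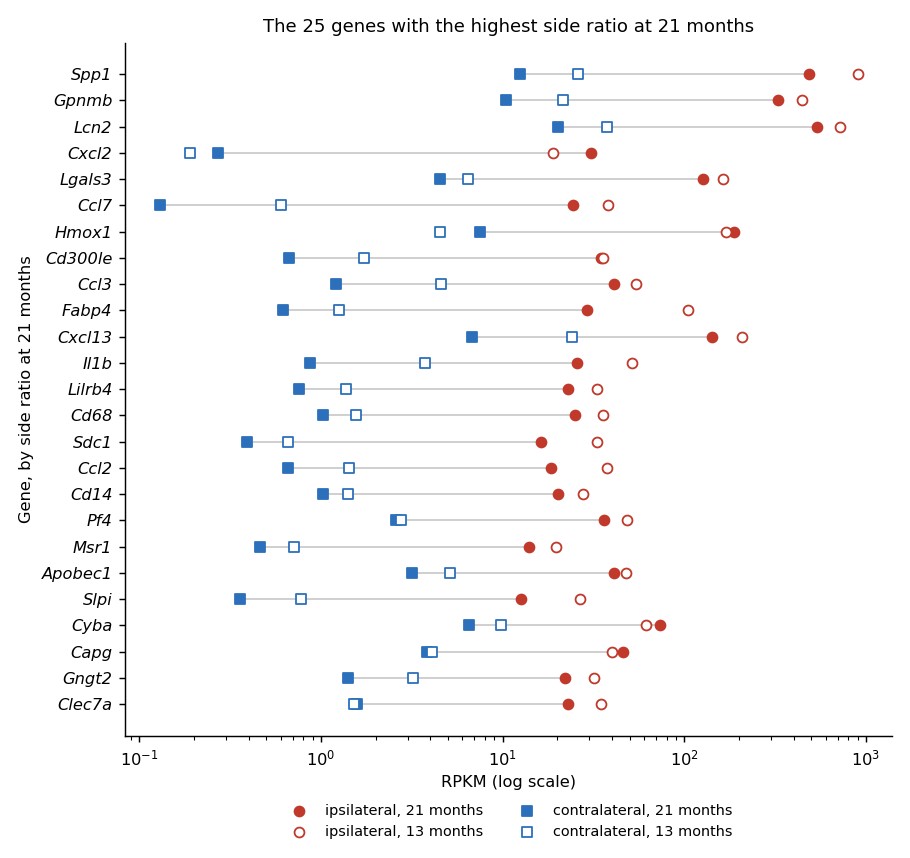
RPKM on a log axis of the 25 genes with the highest side ratio at 21 months, 1 row per gene; circles are ipsilateral and squares contralateral libraries, filled at 21 months and open at 13 months, each symbol being 1 pooled library. The 4 libraries separate by side in every row, and Fabp4 shows the widest gap between the ipsilateral libraries, 29.1 RPKM at 21 months and 105 RPKM at 13 months.

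The receptors by which phagocytes bind antibody, lectin ligands and dying cells were high as a group. Of 33 genes listed as Fc receptors and paired myeloid receptors, 22 reached a mean of 1 RPKM, and 19 of these had a side ratio of at least 1, with a median of 2.12 beside 0.09 over all genes. A gene that is low on the opposite side passes the filter of 1 RPKM more easily when it is high on the bleeding side, so the count describes the genes that passed and is no support by itself. Here and below, counts of list members at 1 or more stand beside the 5.61% of all genes that reached it, and a share near that says nothing particular about a list. Cd300le, an activating receptor of myeloid cells, stood at 34.8 and 0.67 RPKM, and Lilrb4, an inhibitory receptor, at 23.0 and 0.76 RPKM. Fcer1g, the signalling chain that many of these receptors share, stood at 134 and 24.4 RPKM (2.41), and Tyrobp, the adaptor of Trem2, at 52.6 and 6.75 RPKM (2.79). Trem2 itself, a receptor for lipids and apoptotic cells, stood at 23.8 and 5.93 RPKM (1.84). Activating and inhibitory members were thus high together. Sirpa, the receptor through which the "do not eat me" signal of Cd47 is read, differed little, with 48.3 and 41.5 RPKM (0.21).

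Genes that microglia express at rest had smaller ratios than genes of activated phagocytes. Over 9 measured genes of homeostatic microglia the median was 0.57, and 3 reached 1: the growth factor receptor Csf1r (47.8 and 15.8 RPKM, 1.54), the fractalkine receptor Cx3cr1 (10.0 and 3.6 RPKM, 1.26) and the fructose transporter Slc2a5 (1.25). Tmem119 and Sall1, which mark microglia rather than blood-derived macrophages, were at 0.57 and 0.56. Over 20 genes of activated microglia and phagocytes the median was 1.61, with 14 of 20 at 1 or more. Aif1, the Iba1 protein of microglia and macrophages, stood at 47.9 and 16.2 RPKM (1.50), with 92.1 and 18.2 RPKM at 13 months (2.28). For 17 measured genes of monocytes and macrophages the median was 2.38, with 15 at 1 or more, and their summed level was 524 RPKM ipsilaterally and 69.3 RPKM contralaterally. Lyz2, the lysozyme of myeloid cells, had a side ratio of 3.01, Adgre1, an adhesion receptor of mature macrophages, stood at 36.8 and 3.43 RPKM (3.09) and Arg1, an arginase of wound-type macrophages, at 27.0 and 3.38 RPKM (2.67). The macrophage receptor Cd163, which takes up hemoglobin bound to haptoglobin, was an exception, at 1.66 and 1.15 RPKM, with 2.02 and 0.88 RPKM at 13 months. Its side ratio of 0.31 was the second lowest of the list, above the coagulation factor F13a1 (0.15).

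The NADPH oxidase with which phagocytes make superoxide was represented by several of its parts. Its membrane subunits Cyba (73.3 and 6.53 RPKM) and Cybb (27.1 and 2.39 RPKM) had side ratios of 3.30 and 3.05. The cytosolic subunits Ncf1 (2.74) and Ncf4 (2.59), the small GTPase Rac2 (3.13) and the proton channel Hvcn1 (1.34) were all at 1 or more. The nitric oxide synthases of endothelium and neurons, Nos3 (0.11) and Nos1 (-0.20), were near 0. Among ion channels, Kcnn4, a potassium channel of immune cells, stood at 5.76 and 0.49 RPKM (2.18), in a list of 39 potassium channels with a median of -0.14. Trpm2, a cation channel gated by oxidative stress and found in phagocytes, had a ratio of 1.07, in a list of 32 sodium, calcium and related cation channels with a median of -0.14. With 1 gene at 1 or more in each list, their shares are near the 5.61% of all genes. For glucose use, the hexokinase of leukocytes Hk3 stood at 5.85 and 0.08 RPKM (2.67) and the lactate transporter Slc16a3 at 4.57 and 0.54 RPKM (1.85). The list of 31 hypoxia and glycolysis genes that holds both was mostly close to even, with a median of 0.14 and 3 at 1 or more.

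Lysosomal and lipid genes followed, at lower ratios but high levels. Of 49 lysosomal genes measured 17 reached 1, beside 5.61% of all genes, with a median of 0.87. The cathepsins Ctsb (605 and 173 RPKM, 1.80), Ctsd (219 and 69.0 RPKM, 1.65) and Ctsz (143 and 19.9 RPKM, 2.78) and the protease Lgmn (293 and 52.4 RPKM, 2.46) are abundant examples. The proton pump subunit Atp6v1a (-0.22) and the sphingomyelinase Smpd1 (-0.20) were lowest. Among 25 genes of lipid storage and cholesterol efflux the median was 0.91, with the scavenger receptor Msr1 (13.9 and 0.46 RPKM, 3.35) and the lipid droplet coat Plin2 (41.3 and 6.28 RPKM, 2.54) after Fabp4. The efflux pump Abca1 (1.06) and the sterol esterifying enzyme Soat1 (1.32) also reached 1. Apoe, the main lipid carrier of the brain, was abundant on both sides at 4111 and 3094 RPKM (0.41). Genes of cholesterol synthesis had a median of 0.02 over 25 genes.

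**Figure D3:**
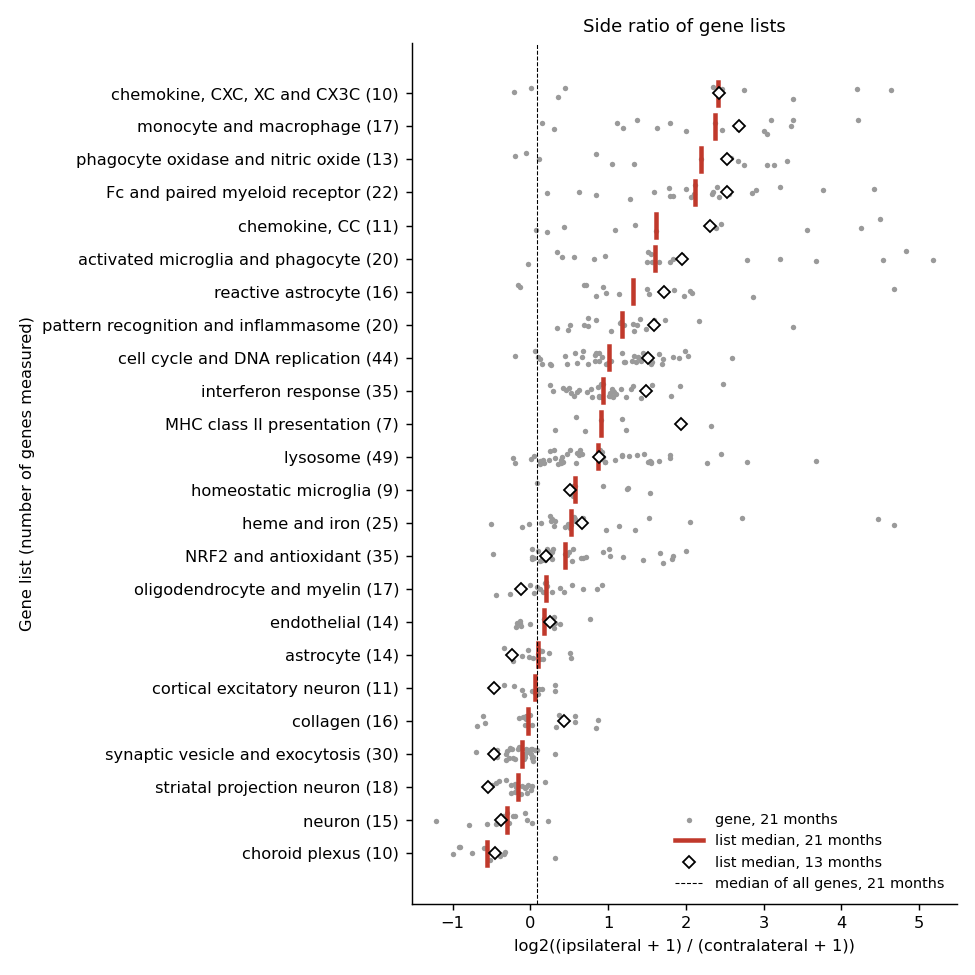
Side ratios at 21 months of the measured genes (grey points) of 24 gene lists, with the list median at 21 months (red bar) and at 13 months (open diamond); the dashed line is the median of all genes at 21 months, 0.09. Lists of phagocytes and chemokines lie at the top with medians up to 2.41, and neuronal lists and the choroid plexus lie near or left of the dashed line, down to -0.56.

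Chemokines were among the genes with the widest gap, and most were close to 0 RPKM on the opposite side. Among the neutrophil-attracting CXC chemokines, Cxcl2 stood at 30.6 and 0.27 RPKM, with 18.9 and 0.19 RPKM at 13 months. Cxcl1 stood at 16.5 and 1.6 RPKM (2.75) and Cxcl3 at 4.87 and 0.06 RPKM (2.47). Cxcl2 was therefore one of the few leading genes with a higher ipsilateral level at 21 than at 13 months. Of the monocyte-attracting CC chemokines, Ccl7 stood at 24.5 and 0.13 RPKM, Ccl2 at 18.6 and 0.66 RPKM and Ccl3 at 41.2 and 1.21 RPKM. Cxcl13, which draws B cells, was the most abundant of all at 142 and 6.78 RPKM, with 208 and 24.1 RPKM at 13 months. Ccl5, which T cells release, was low at 1.14 and 0.59 RPKM (0.43). The neuronal chemokine Cx3cl1 (93.3 and 93.0 RPKM, 0.01) and the stromal Cxcl12 (6.02 and 7.15 RPKM, -0.22) did not differ by much. Over 11 measured CC chemokines the median was 1.62 with 8 at 1 or more, and over 10 measured CXC and CX3C chemokines it was 2.41 with 6 at 1 or more. With no filter on low values these medians were 0.43 over 17 and 0.75 over 13 genes, since the unmeasured chemokines were near 0 on both sides.

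Receptors for these ligands were fewer. Of 21 chemokine receptors listed 5 reached a mean of 1 RPKM. Cxcr4, the receptor of Cxcl12, stood at 12.4 and 1.26 RPKM (2.57), and Ccr1, a receptor of Ccl3 and Ccl7, at 1.7 and 0.21 RPKM (1.16). Ccr2, the receptor of Ccl2 on blood monocytes, stood at only 0.33 and 0 RPKM, and Cxcr2, the receptor of Cxcl1 and Cxcl2 on neutrophils, at 0.29 and 0 RPKM. High ligand levels thus stood beside low levels of these 2 receptors at 21 months, as at 13 months (0.67 and 0.27 RPKM for Ccr2, 0.38 and 0.01 RPKM for Cxcr2).

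Interleukin 1 and its brakes were high together. Il1b stood at 25.6 and 0.87 RPKM, with 51.8 and 3.75 RPKM at 13 months, a side ratio of 3.83 at 21 months. Il1rn, the antagonist of its receptor, stood at 9.78 and 0.52 RPKM (2.83), and the decoy receptor Il1r2 at 2.64 and 0.14 RPKM (1.67). The signalling receptor Il1r1 was at 0.39. Il1a was at 1.28. Of 27 cytokines listed 11 were measured, with a median of 0.95 and 5 at 1 or more, beside 5.61% of all genes. Some cytokines were low: Il6 (0.34 and 0.03 RPKM), Il10 (1.32 and 0 RPKM), Ifng (0.06 and 0 RPKM) and Il17a (0.09 and 0.01 RPKM) did not reach a mean of 1 RPKM. Tgfb1, a cytokine that limits inflammation and promotes scarring, stood at 15.5 and 4.23 RPKM (1.65). Among 18 measured genes listed as brakes of cytokine signalling the median was 0.91, with 8 at 1 or more. Socs3, which stops signalling through Stat3, stood at 17.6 and 1.11 RPKM (3.14). The phosphatase Ptpn6 (2.16), the NF-kB regulators Nfkbiz (1.84), Bcl3 (1.66), Tnfaip3 (1.54) and Nfkbia (1.13) and the RNA decay factor Zfp36 (1.72) followed.

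Several of the brakes and chemokines are textbook targets of NF-kB, a transcription factor of inflammatory signalling, and AP-1 and interferon regulatory factors act on phagocyte genes. The promoters of the higher genes were therefore searched for short letter patterns in RefSeq sequence of build GRCr8, from 250 bases before to 50 bases after the first listed start of each gene, on both strands. Of 12083 measured genes with a symbol, 8981 matched a promoter, among them 511 of the higher genes. In the patterns N stands for any base. They are simplified, so a match does not show that a factor binds, and sites with other letters are missed. The windows below show the highest genes with a match before the start site, 100 bases each, 5′ to 3′ on the gene's strand, with the match in capitals. Cxcl1, Steap4 (a metal reductase induced in reactive astrocytes) and Batf (a transcription factor of leukocytes) hold the NF-kB pattern GGANTTTCC or its reverse reading. Gpnmb, Ccl7 and Cd68 hold the AP-1 pattern TGANTCA, and Adgre1 the interferon response pattern TTCNNTTTC in reverse reading. Cybb holds both of the last patterns, in neighbouring windows.
Cxcl1, chr14:17479350-17479449, minus strand, side ratio 2.75: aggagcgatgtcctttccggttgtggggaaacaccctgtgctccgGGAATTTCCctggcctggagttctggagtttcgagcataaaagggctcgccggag
Steap4, chr4:27054893-27054992, minus strand, side ratio 2.06: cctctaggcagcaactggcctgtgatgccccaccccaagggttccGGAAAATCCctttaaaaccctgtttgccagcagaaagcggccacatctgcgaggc
Batf, chr6:111084467-111084566, plus strand, side ratio 1.99: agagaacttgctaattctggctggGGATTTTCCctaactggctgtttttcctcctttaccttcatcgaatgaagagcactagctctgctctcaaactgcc
Gpnmb, chr4:79340995-79341094, plus strand, side ratio 4.84: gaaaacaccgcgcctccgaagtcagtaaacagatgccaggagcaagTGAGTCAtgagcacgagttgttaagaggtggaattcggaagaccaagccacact
Ccl7, chr10:67513976-67514075, plus strand, side ratio 4.49: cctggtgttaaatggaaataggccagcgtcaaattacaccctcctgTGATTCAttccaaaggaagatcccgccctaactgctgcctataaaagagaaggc
Cd68, chr10:54882592-54882691, minus strand, side ratio 3.68: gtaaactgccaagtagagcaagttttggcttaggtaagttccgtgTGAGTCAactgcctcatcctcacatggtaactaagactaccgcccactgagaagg
Adgre1, chr9:2329190-2329289, plus strand, side ratio 3.09: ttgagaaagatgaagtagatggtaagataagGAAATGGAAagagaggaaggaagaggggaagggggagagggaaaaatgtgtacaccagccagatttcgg
Cybb AP-1 match, chrX:16065178-16065277, minus strand, side ratio 3.05: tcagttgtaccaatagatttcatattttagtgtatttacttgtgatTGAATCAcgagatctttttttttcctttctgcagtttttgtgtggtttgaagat
Cybb interferon response match, chrX:16065066-16065165, minus strand: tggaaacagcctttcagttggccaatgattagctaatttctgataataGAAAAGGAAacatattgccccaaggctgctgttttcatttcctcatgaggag

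The NF-kB pattern stood in 22 of the 511 higher promoters (4.31%), in 1.43% of all 8981 measured promoters and in 1.26% of the 27457 promoters of the table. Besides the genes shown, the 22 included the NF-kB subunit Nfkb2, the NF-kB regulators Nfkbia, Nfkbiz and Tnfaip3, the adhesion molecule Icam1 and the peptide transporter Tap1. In Cxcl1 the match began 83 bases before the start, in Tnfaip3 67, in Tap1 54 and in Nfkb2 19 bases before it. AP-1 letters stood in 11.2% of the higher promoters, 4.77% of the measured ones and 7.33% of all. For the interferon response letters the shares were 13.3%, 7.15% and 9.50%. The heat shock unit GAANNTTC stood in 9.20%, 5.59% and 8.34%, and the CCAAT box (CCAATNNG) in 18.8%, 17.2% and 13.6%. Shares of the antioxidant response pattern TGACNNNGC differed less, with 13.7%, 14.7% and 12.2%, and the E2F pattern TTTCCCGC was in 0.783%, 1.94% and 1.03%. These shares describe letters near the first listed start site, and no test was made of their difference. Matches of the AP-1 and antioxidant patterns overlapped in 4 of the higher promoters, and those of the interferon pattern overlapped heat shock matches in 3 and a CCAAT match in 1. A CCAAT and a heat shock match overlapped in 1.

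Complement genes were higher on the bleeding side in part. Of 13 measured genes of complement activation 7 reached 1 (median 1.0017), and of 12 receptors and inhibitors 6 did (median 0.93), beside 5.61% of all genes. C1q, which starts the classical pathway, had all 3 chains at 1 or more: C1qb stood at 147 and 34.1 RPKM (2.08), C1qc at 99.6 and 24.8 RPKM (1.97) and C1qa at 126 and 45.4 RPKM (1.45). C3, the component on which the pathways meet, stood at 147 and 19.3 RPKM (2.87), with 202 and 46.2 RPKM at 13 months (2.11). Properdin (Cfp, 1.99) and factor B (Cfb, 1.78) of the alternative pathway were also above 1. The proteases C1s (0.92) and C1r (0.87) were just below, and the terminal component C7 (-0.12) and the collectin Colec12 (-0.02) were lowest. The receptor for the C5a fragment, C5ar1, stood at 4.34 and 0.11 RPKM (2.27), and both chains of the C3 fragment receptor, Itgb2 (2.22) and Itgam (1.95), were high. Inhibitors were split: the secreted Serping1 (72.3 and 15.04 RPKM, 2.19) was above 1, while the membrane-bound Cd55 (0.16) and Cd59 (0.15) were near the median of all genes and Csmd1 was at -0.18.

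Pattern recognition and inflammasome genes had a median of 1.18 over 20 measured, of which 13 were at 1 or more. Cd14, the co-receptor for endotoxin, stood at 20.1 and 1.03 RPKM (3.38) and Tlr2, a receptor for bacterial lipoproteins, at 7.73 and 0.94 RPKM (2.17). The inflammasome adaptor Pycard (1.73) and its protease Casp1 (1.33) were higher than the sensor Nlrp3, at 2.5 and 0.58 RPKM (1.15). Lowest were 3 sensors of double-stranded RNA, Tlr3 (0.34), Ddx58 (0.48) and Ifih1 (0.51), whereas Tlr7 (1.41) and Tlr8 (1.32), which sense single-stranded RNA, were above the list median.

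Interferon-response genes and antigen presentation were higher on the bleeding side, with list medians that were smaller at 21 than at 13 months. Of 35 interferon-response genes measured 17 reached 1 at 21 months, and 29 at 13 months, when 7.19% of all genes did. The list medians were 0.94 at 21 and 1.49 at 13 months. Mx1, an antiviral GTPase, stood at 56.9 and 15.5 RPKM, with 48.3 and 7.12 RPKM at 13 months. Its ipsilateral level was the higher one at 21 months and its contralateral level was more than that of 13 months as well, so the smaller ratio (1.81 against 2.60) came with a higher level on the opposite side. Class II genes were mixed in this respect. Cd74, the invariant chain of class II, stood at 65.1 and 39.5 RPKM, with 83.8 and 17.6 RPKM at 13 months, and RT1-Da, a class II alpha chain, at 13.3 and 5.31 RPKM against 14.7 and 1.93 RPKM. In these 2 genes the contralateral level was the higher one at 21 months. In RT1-Ba, another class II alpha chain, it was not: the ipsilateral level was 3.7 RPKM at 21 and 7.71 RPKM at 13 months, and the contralateral one 1.01 and 1.27 RPKM. RT1-Bb (1.02 against 4.57 RPKM ipsilaterally), RT1-Db1 (0.76 against 3.38 RPKM) and the lysosomal reductase Ifi30 (62.2 against 122 RPKM) were likewise lower ipsilaterally at 21 months, with contralateral levels no higher than at 13 months. Over 7 measured class II genes the median was 0.91 against 1.94. Ctss, the protease that trims the invariant chain, was at 0.91 and 0.74. Class I genes had a median of 0.99 over 10, against 1.26 at 13 months. The peptide loader Tapbp (17.6 and 5.29 RPKM, 1.56) was highest. It went the other way between the ages, with 11.3 and 6.42 RPKM at 13 months (0.73).

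Few of the markers listed for lymphocytes and granulocytes reached a mean of 1 RPKM. Of 20 genes listed for T and NK cells 5 reached a mean of 1 RPKM, and the chains of the T cell receptor complex did not: Cd3e stood at 0.51 and 0.32 RPKM, Cd3d at 0.39 and 0.04 RPKM and Cd3g at 0.2 and 0.1 RPKM. Their ipsilateral values at 13 months were 1.11, 1.6 and 1.47 RPKM. Cd8a stood at 8.32 and 0.25 RPKM (2.90) and Cd4 at 19.0 and 5.87 RPKM (1.54), far above the Cd3 chains. In rats, macrophages and microglia can carry both of these antigens, so neither is specific to T cells here. Of 16 neutrophil genes listed 6 were measured. Their median was 1.76, and 5 of the 6 reached 1, beside 5.61% of all genes. The receptors Trem1 (4.61 and 0.1 RPKM, 2.35) and Csf3r (7.08 and 0.95 RPKM, 2.05) were the highest. S100a8 and S100a9, calcium-binding proteins of neutrophils and monocytes, stood at 12.6 and 2.71 RPKM (1.88) and at 16.2 and 4.53 RPKM (1.64), and their side ratios at 13 months were 3.19 and 3.40. The granule genes Mpo (0.02 and 0.02 RPKM) and Ltf (0 and 0.01 RPKM) were at or near 0. Of B and plasma cell genes only the immunoglobulin genes Igkc and Igj were measured, and neither was higher on the bleeding side at 21 months. Igkc stood at 24.9 and 27.7 RPKM, against 2.65 and 2.55 RPKM at 13 months, so it differed between the ages' libraries and little between the sides. Igj stood at 2.68 and 5.4 RPKM, against 2.51 and 1.13 RPKM at 13 months, and did differ between the sides. Age and the animals pooled cannot be told apart here.

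Heme and iron genes, Hmox1 and Lcn2 among them, had a median of 0.52 over 25 measured, with 7 at 1 or more beside 5.61% of all genes. Slc11a1, the iron pump of the phagosome, stood at 13.7 and 1.22 RPKM (2.73) and Steap4 at 8.46 and 1.27 RPKM (2.06). Haptoglobin (Hp), which binds free hemoglobin, stood at 3.33 and 0.71 RPKM (1.34), against 8.25 and 0.79 RPKM at 13 months. The transferrin receptor Tfrc stood at 25.3 and 15.5 RPKM, against 80.9 and 14.8 RPKM at 13 months. Its contralateral levels were close, and the ipsilateral level at 21 months was the lower one, which gave side ratios of 0.68 and 2.37. Ferroxidase Cp showed the same order, with 0.97 and 1.93. The second step of heme breakdown showed no such gap, with Blvra at -0.11 and Blvrb at 0.56, and the constitutive oxygenase Hmox2 stood at 33.6 and 34.1 RPKM (-0.02). Ftl1, the light chain of the iron store ferritin, stood at 3.74 and 1.16 RPKM (1.13). Ferritin genes have many near-identical copies in the genome, so this low level is uncertain. Hemoglobin transcripts, a sign of blood in the tissue, were not higher on the bleeding side: Hbb stood at 8.77 and 9.31 RPKM and Hba2 at 15.5 and 32.6 RPKM.

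Antioxidant genes had a median of 0.45 over 35 measured, with 9 at 1 or more. Thioredoxin (Txn1) stood at 148 and 36.4 RPKM (1.998), with 93.4 and 46.3 RPKM at 13 months. The mitochondrial superoxide dismutase Sod2 stood at 126 and 45.4 RPKM (1.45), and the glutathione peroxidase Gpx1 at 83.3 and 25.5 RPKM (1.67). Nfe2l2, the factor that drives many of these genes, was at 0.93. The metallothionein Mt3 of neurons and astrocytes stood at 336 and 179.8 RPKM (0.90), against 202 and 197 RPKM at 13 months (0.04). Chaperones differed little, with a median of -0.02 over 19 heat shock genes. Hspb1, a small heat shock protein that reactive astrocytes make, was the exception at 68.9 and 8.55 RPKM (2.87), and the mitochondrial chaperonin Hspd1 was lowest at 137 and 198 RPKM (-0.53).

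Cell death and cell division genes were both higher. Among 28 genes of apoptosis, necroptosis and pyroptosis the median was 0.75, with 10 at 1 or more. Bcl2a1, a survival factor of leukocytes, stood at 23.4 and 2.58 RPKM (2.77). The necroptosis genes Zbp1 (1.75), Ripk3 (1.65) and Mlkl (1.16) were at 1 or more, whereas the neuronal survival factor Bcl2 was at -0.04. Of 44 cell cycle genes 22 reached 1 (5.61% of all genes did), with a median of 1.01. At 13 months 31 did (7.19% of all genes), with a median of 1.51. Cdk1, the kinase of mitosis, stood at 6.9 and 0.31 RPKM (2.59), with 8.71 and 0.83 RPKM at 13 months. Mki67, the proliferation marker, stood at 5.02 and 0.69 RPKM (1.83), with 9.67 and 1.11 RPKM at 13 months. Growth arrest genes of the p53 response were moderate, with Gadd45a at 1.18 and Cdkn1a at 0.71.

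Matrix genes varied widely. Of 35 matrix glycoprotein and proteoglycan genes 10 reached 1 (median 0.30), and of 20 matrix proteases and inhibitors 4 did (median 0.43), beside 5.61% of all genes. Tgfbi, an adhesion protein that macrophages secrete, stood at 33.5 and 3 RPKM (3.11), thrombospondin Thbs1 at 4.89 and 0.33 RPKM (2.15), and the hyaluronan receptor Cd44 at 13.0 and 2.58 RPKM (1.97). Fibronectin Fn1 and periostin Postn (1.25) were above 1. The 16 collagen genes had a median of -0.03, against 0.44 at 13 months, and none reached 1, which with so few genes is near the 5.61% of all genes. Col3a1, a fibrillar collagen of scars, stood at 4.96 and 2.25 RPKM (0.87), with 9.22 and 2.37 RPKM at 13 months (1.60), and had the highest ratio of the list. Col25a1, a collagen of neurons, was lowest at 2.46 and 4.55 RPKM (-0.68). Proteases that cut matrix were led by Adam8 (1.96), the urokinase Plau (3.88 and 0.31 RPKM, 1.90) and the membrane protease Mmp14 (1.71). The gelatinase Mmp9, often linked to opening of the blood-brain barrier, stood at 1.8 and 0.41 RPKM (0.99). Plat, the tissue plasminogen activator, was at -0.15.

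Actin, annexin and S100 genes formed 1 of the larger sets, with 22 of 47 at 1 or more and a median of 0.88. Capg (3.28), Lcp1 (2.46) and Arpc1b (2.24), which shape the actin of moving leukocytes, were joined by S100a11 (2.71), S100a6 (2.40) and S100a10 (126 and 26.1 RPKM, 2.23). Myh10, the non-muscle myosin of neurons and other cells, was lowest at 59.9 and 94.7 RPKM (-0.65).

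Genes listed for reactive astrocytes had a higher median side ratio than general astrocyte genes. Some of them, such as Lcn2 and Vim, are not made by astrocytes alone. Gfap, the intermediate filament of astrocytes, stood at 1225 and 340.1 RPKM (1.85). Vim, a filament of reactive astrocytes and other injured tissue, stood at 465 and 109 RPKM (2.08). Of 16 measured reactive astrocyte genes 9 reached 1, with a median of 1.32. General astrocyte genes had a median of 0.10 over 14. The water channel Aqp4 (0.51), the glutamate transporters Slc1a2 (-0.11) and Slc1a3 (-0.03) and the enzyme Aldh1l1 (0.23) are examples. At 13 months the median of the general genes was -0.23. Oligodendrocyte and myelin genes lay at 0.20 over 17 genes, against -0.12. Cldn11, the tight junction protein of myelin, stood at 147 and 77.6 RPKM (0.92), and Ermn, a cytoskeletal protein of mature oligodendrocytes, at 71.0 and 97.2 RPKM (-0.45). Among precursor genes Vcan (7.27 and 2.2 RPKM, 1.37) was high, but monocytes also express this proteoglycan. Pdgfra (0.17) and Cspg4 (0.13) were near the median of all genes.

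Vascular genes differed less. Over 14 endothelial genes the median was 0.17, over 16 genes of blood-brain barrier junctions and transport it was 0.07. The junction proteins Ocln (-0.08) and Tjp1 (0.13) and the glucose transporter Slc2a1 (0.30) are examples. Vegfa, which makes vessels grow and leak, stood at 27.6 and 29.3 RPKM (-0.08). Mural cell genes had a median of 0.01, and the contractile genes went apart. Tagln, an actin-binding protein of smooth muscle that injured tissue can also express, stood at 136 and 27.7 RPKM (2.25), while the smooth muscle myosin Myh11 stood at 7.21 and 14.9 RPKM (-0.95), with 11.4 and 11.5 RPKM at 13 months.

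Neuronal genes were mostly within 0.5 of 0 at 21 months. The median was -0.30 over 15 general neuron genes, with 13 of 15 lower in both ipsilateral libraries than in both contralateral ones, as were 22.1% of all genes. Snap25, a protein of synaptic vesicle fusion, stood at 397 and 389.6 RPKM (0.03), with 298 and 460.1 RPKM at 13 months (-0.63). Nefm, the medium neurofilament chain, stood at 133 and 309.9 RPKM (-1.21), with 202 and 268 RPKM at 13 months (-0.41), and the heavy chain Nefh at 60.8 and 105.5 RPKM (-0.78). The light chain Nefl was at -0.42, so the 3 neurofilament chains differed among themselves by more than at 13 months, when they ranged from -0.58 to -0.41. Cortical excitatory neuron genes had a median of 0.05 against -0.47, and Slc17a7, the vesicular glutamate transporter of cortex, stood at 150 and 120.2 RPKM (0.31), with 101 and 139.6 RPKM at 13 months (-0.47). Striatal projection neuron genes had -0.16 against -0.55, and synaptic vesicle genes -0.11 against -0.47. Whether the brain regions dissected were the same at both ages is not given, and the part of this in the difference was not tested.

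Receptors and channels of neurons lay close together. Medians were -0.13 over 20 glutamate receptor genes, -0.10 over 15 GABA and glycine receptor genes, 0.01 over 22 receptors of dopamine, serotonin, acetylcholine and related transmitters and -0.14 over 39 potassium channels. With libraries scaled by their median ratio or to equal sums over nuclear genes, 37 instead of 26 of the 90 list medians were below 0, so the sign of medians this near 0 depends on the scaling. Of 27 immediate early genes measured 2 reached 1, a share near the 5.61% of all genes, and the list median was -0.04. The lowest were Egr3 (4.81 and 7.91 RPKM, -0.62), Npas4 (-0.58) and Arc (-0.40), which mark synaptic activity. The highest were Ier3 (1.58), Maff (1.03) and Fosl2 (0.94), which inflammatory signals also induce.

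Neuropeptide genes had a median of -0.19 over 21, with both signs. Oxt and Avp, the hormones of hypothalamic neurons and neighbours in the genome, stood at 32.8 and 13.3 RPKM (1.25) and at 40.2 and 17.7 RPKM (1.14), against 19.6 and 17.1 RPKM and 28.3 and 24.7 RPKM at 13 months. In both genes the ipsilateral library of 21 months was the highest of the 4. Chgb, a protein of secretory granules, stood at 322 and 563 RPKM (-0.81), and the related Chga at -0.18. The pituitary hormone subunit Cga stood at 0.63 and 4.88 RPKM, with 5.37 and 1.48 RPKM at 13 months. Pituitary genes Gh1 (0.04 and 0.04 RPKM) and Tshb (0 and 0.08 RPKM) were at or near 0.

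Choroid plexus genes were the list with the lowest well-filled median, -0.56 over 10 genes. Ttr, the thyroid hormone carrier of cerebrospinal fluid, stood at 1049 and 1767 RPKM (-0.75). Clic6 (6.14 and 12.5 RPKM, -0.92), the ageing-related hormone receptor Kl (-0.91) and Sostdc1 (5.06 and 11.1 RPKM, -1.0012) were lower too, the last just past the limit. Folr1 (4.97 and 3.78 RPKM, 0.32) was the only measured member above 0. Summed over the list the levels were 1151 and 1906 RPKM. Igf2, a growth factor of choroid plexus and meninges, stood at 4.51 and 8.88 RPKM (-0.84). The prostaglandin enzyme Ptgds, which meninges and choroid plexus make, stood at 342 and 518 RPKM (-0.60). Igf2 and Ptgds were the lowest of 14 measured genes of fibroblasts and meninges, whose median was 0.03 with 10 above 0. Whether choroid plexus and meninges were taken in equal share on both sides was not tested.

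Unlike the higher genes, the 35 lower genes as a group did not lean the same way at 13 months. At 13 months 18 of the 35 were below 0, and their median side ratio was -0.01. That share is near that of all genes, of which 50.8% were above 0 at 13 months. The ipsilateral library of 21 months was the lowest of the 4 in 34 of them. They were chosen for a low value in that library, so this count is no support by itself. Of the 35, 7 had placeholder names. Rpl37, a protein of the large ribosomal subunit, stood at 6.79 and 38.8 RPKM, with 51.7 and 29.1 RPKM at 13 months. Mrpl33, of the mitochondrial ribosome, stood at 57.5 and 209 RPKM, with 212 and 159.9 RPKM at 13 months. Tceal5, a small nuclear protein, stood at 22.1 and 86.0 RPKM, with 59.4 and 77.2 RPKM. In each the 21 month ipsilateral library stood apart from the other 3. Other low genes included the initiation factor Eif5b (2.8 and 12.3 RPKM, -1.81), Gpatch4 (-1.53), the actin-binding Nexn (-1.44) and the troponin Tnnt2 (-1.28). Ppia was also among them, at a low level of 2.97 and 8.65 RPKM (-1.28). Tph2, the enzyme of serotonin neurons, stood at 0.47 and 2.46 RPKM (-1.24), with 0.3 and 0.88 RPKM at 13 months.

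Beside these, the 21 month ratios moved with the size of the gene. RefSeq gene spans, from start to end with introns, were found for 10906 genes (89.7%) and stand in for transcript length, which was not analysed here. In the decile of shortest genes (median 3.14 kb) the median side ratio was 0.26, and it was lower in each next decile down to -0.08 in the longest (median 245 kb). At 13 months it stayed between 0.03 and 0.05 in the first 8 deciles and was -0.17 in the longest. Between the contralateral libraries of both ages it lay between -0.06 and -0.01 throughout. The interquartile range in the shortest decile was 0.60 at 21 months, 0.58 at 13 months and 0.22 between the contralateral libraries. Of the genes with a span, 115 of 1091 in the shortest decile and 12 of 1091 in the longest reached a side ratio of 1. The higher genes had a median span of 15564 bases, against 26666.5 bases over all. As an alternative chosen after seeing the data, the median of each decile was taken out and the all-gene median of 0.09 added back. This lowered ratios in the shorter deciles and raised them in the longer ones. With it, 622 of the 682 genes still reached 1 (641 of the 682 have a span). For the lower genes this says little, since most of those with a span lie in the shorter deciles, where ratios were lowered. The part of RNA quality or library preparation in this trend was not tested. The side ratios printed for single genes, including those larger at 21 than at 13 months, are not adjusted for gene span.

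**Figure D4:**
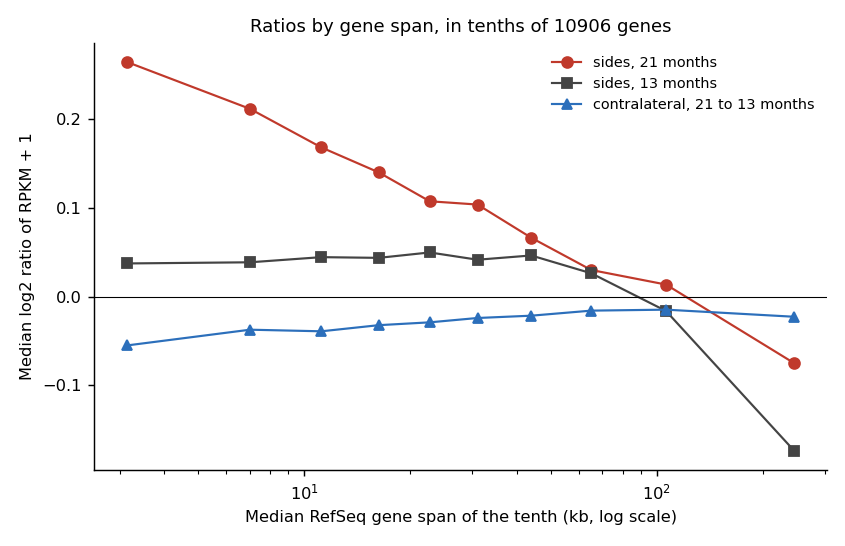
Median log2 ratio (vertical axis) in deciles of 10906 genes ordered by RefSeq gene span, against the median span of each decile in kb on a log axis, for the sides at 21 months, the sides at 13 months and the contralateral libraries of both ages. The 21 month line goes from 0.26 to -0.08, while the 13 month line is level over 8 deciles before -0.02 and -0.17.

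Sets of genes whose products work in fixed proportion showed how uneven single values were. For 60 cytosolic ribosomal protein genes the side ratio had a standard deviation over genes of 0.60 at 21 months, against 0.22 at 13 months and 0.19 between the contralateral libraries. Values ran from Rps2 (68.8 and 27.0 RPKM, 1.32) and Rpl18 (172 and 79.4 RPKM, 1.10) to Rpl36 (10.2 and 21.96 RPKM, -1.04) and Rpl37. The corresponding spreads were 0.37, 0.18 and 0.14 for 74 mitochondrial ribosomal proteins and 0.42, 0.12 and 0.10 for 49 nuclear genes of the respiratory chain. In the latter Cox8a stood at 526 and 192 RPKM (1.45), with 169.8 and 234 RPKM at 13 months, and Cox7c at 76.2 and 117 RPKM (-0.62). Subunits of 1 complex thus differed in sign. Among the 11 mitochondrially encoded genes the spreads were 0.38, 0.09 and 0.19. Mt-atp8 stood at 8945 and 18092 RPKM (-1.02) and Mt-atp6 at 14772 and 11663 RPKM (0.34). These 2 genes overlap and share a transcript, so reads of the 1 cannot be fully told from the other. The 15 general neuron genes had spreads of 0.35, 0.09 and 0.11. Ribosomal protein genes also have many near-identical pseudogenes, so their single values are uncertain. The medians at 21 months were 0.25 for cytosolic and 0.17 for mitochondrial ribosomal proteins, 0.03 for nuclear and -0.10 for mitochondrially encoded respiratory genes. Mitochondrially encoded genes took 20.6% of the RPKM sum ipsilaterally and 24.1% contralaterally.

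**Figure D5:**
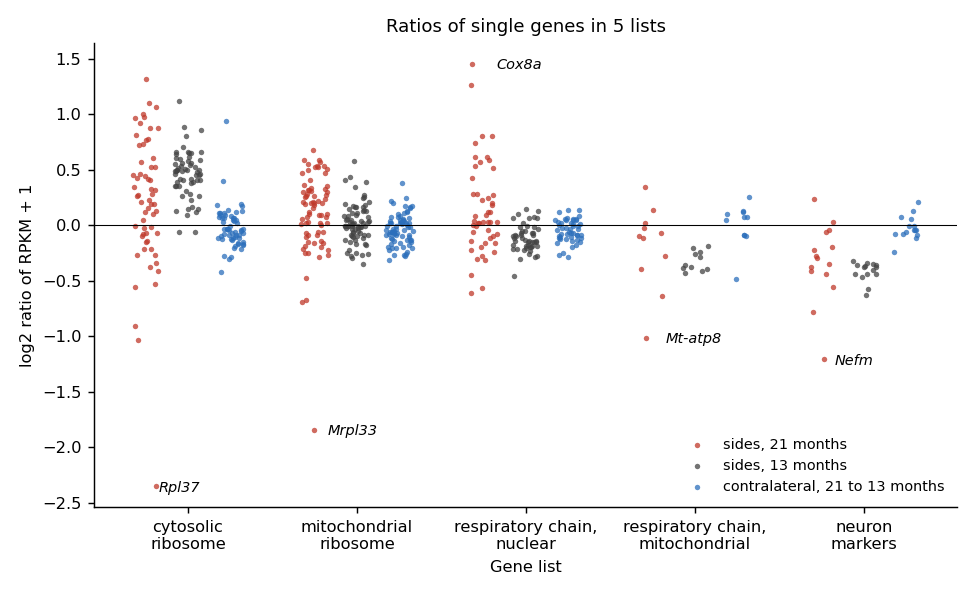
Log2 ratios of single genes in 5 lists, for the sides at 21 months (red), the sides at 13 months (dark grey) and the contralateral libraries of both ages (blue); each point is 1 gene and points are spread sideways for visibility. Red points are the most scattered in every list, with standard deviations of 0.60, 0.37, 0.42, 0.38 and 0.35 from left to right, and Rpl37 reaches -2.35.

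Set beside 13 months, most higher genes were shared. Of the 682, 578 also reached 1 at 13 months, beside 7.19% of all genes. The other 104 had a median side ratio of 0.66 there, with 98 above 0, beside 50.8% of all genes. The filter averages all 4 libraries, so a gene low on the opposite side passed more easily when high on the bleeding side at both ages. The ages share no library. Genes whose side ratio was larger at 21 months included Cox8a, Ndufb6 (38.6 and 15.6 RPKM, with 13.7 and 16.9 RPKM at 13 months) and Hopx (164 and 28.3 RPKM, with 56.3 and 31.0 RPKM). Hopx encodes a small homeodomain protein found in astrocytes, and in it both ipsilateral libraries were the higher ones. The pineal and photoreceptor genes Tph1, Pde6g and Gngt1 also had a larger ratio at 21 months, but they were high in 1 library alone, the contralateral one of 13 months, with 10.4, 11.02 and 6.05 RPKM. Their 21 month values were at most 1.27 RPKM. On the other side stood genes with a smaller ratio at 21 months, namely Cga, Rpl37, Mrpl33, Eif5b, Rpl36, Rpl31l4, S100a9 and Tfrc.

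Enzymes that modify DNA and histones, which the title of the series names, were close to even apart from a few. Apobec1, a deaminase that edits RNA and was listed with the DNA methylation and demethylation genes, stood at 41.0 and 3.19 RPKM (3.33). The histone deacetylase Hdac8 stood at 17.8 and 11.9 RPKM (0.55) and the deacetylase Sirt7 at 9.86 and 5.2 RPKM (0.81). Among histone methylation genes Ezh2 was highest at 3.91 and 2.1 RPKM (0.66), with 6.69 and 2.0 RPKM at 13 months (1.36). Kmt2c, a methyltransferase of enhancers, was lowest at 3.02 and 6.28 RPKM (-0.86). Medians were 0.15 over 17 genes of DNA methylation and demethylation, 0.12 over 31 histone acetylation genes and -0.003 over 38 histone methylation genes.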

How the data were processed

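Measured were 4 RNA-seq libraries of rat brain, 1 per group. Per the labels' protocols, total RNA of 9 brains was mixed in equal parts and poly(A)-selected for strand-specific libraries; whether the 9 brains stand behind 1 library or the series is unclear. Per the submitters' processing notes, the tools included cutadapt, TopHat2 and edgeR, their roles unstated, and the build named is GRCh38, which is human; the identifiers are those of rat, so coordinates of the deposited table were not used. For the counting step and the gene lengths, the settings were not given in the sources used here. Values in the deposited table are RPKM, which the authors gave with 2 decimals, and not counts, so depth and the precision of a single value are unknown.

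Side ratios were computed with 1 RPKM added, for genes averaging 1 RPKM or more, with limits of 1 and -1, in Python 3.11.15 with pandas 2.3.3, numpy 2.4.6 and matplotlib 3.10.9. With 1 library per group no statistical test was made. The calculation was tested on simulated data with known changes. Besides all genes, 90 gene lists were described (2335 entries, of which 2185 matched by symbol, 11 by an older name and 139 not). Of entries with the same symbol, lists used the one with the highest mean. The members and lists were chosen with earlier results of these data known. Named genes, placeholders left out, were the 25 highest and 15 lowest, the 3 highest and 2 lowest of each list, the 8 largest and 8 smallest differences between the ages' ratios, and a set of markers of injury and cell types; others, among them further list members and the unmeasured genes, were chosen after their values were seen. Length was to be taken from proteins; as no protein table was used here, RefSeq gene spans (GRCr8) took its place. Other additions, scalings and filters were tried.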

Additional observations from a re-analysis of the deposited data

Results flagged for a closer look

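In 7 named genes the sides went in opposite directions at both ages by at least 0.5 on the log2 scale, with 1 library per side at each age; the difference between the ages was not tested. Cga, the shared subunit of pituitary glycoprotein hormones, had a side ratio of -1.85 at 21 months and 1.36 at 13 months. The ribosomal protein genes Rpl37 (-2.35 and 0.81), Rpl36 (-1.04 and 0.86) and Rpl31l4 (-1.23 and 0.65) and the elongation factor gene Eef1b2 (-0.73 and 0.57) were lower on the bleeding side at 21 months only. Igj, the joining chain of immunoglobulins, had -0.80 and 0.72. Nrtn, a trophic factor of the GDNF family, had 0.82 and -0.53, with 1.64 and 0.5 RPKM at 21 months and 1.07 and 1.98 RPKM at 13 months.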

How the results depend on the processing

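In place of 682, the number of genes higher by at least 1 was 945 when 0.1 RPKM was added, 586 with median-ratio scaling, 593 with equal sums over nuclear genes, 702 without a filter, 675 with the filter on the 21 month libraries alone and 413 of 8017 genes when they had to average 5 RPKM. The genes lower by at least 1 were 59 in place of 35 with the smaller addition, 50 under either scaling and 30 at a mean of 5 RPKM. Of the 90 lists, 13 had a median of at least 1, against 22 with that addition, 5 without a filter and 11 to 17 otherwise. Without a filter the median of the B and plasma cell list went from -0.47 to 0.11, that of mast cells from -0.20 to 0.0001 and that of pineal and photoreceptor genes from -0.23 to 0.0; the last was 1.89 over 2 genes under either stricter filter. Neutrophil genes had 0.37 without a filter in place of 1.76, since more genes near 0 entered. With the median of each gene span decile taken out, a choice made after seeing the data, glutamate receptors went from -0.13 to 0.0083 and 632 genes were higher and 44 lower. Of 145 named higher genes 130 or 131 stayed at 1 or more under either scaling and with the span decile taken out. Either scaling lowers nearly all ratios, so it says nothing about the lower genes. Taking out the span decile median lowers ratios in the shorter deciles and raises them in the longer ones. Most lower genes with a span lie in the shorter deciles, so this setting says little about them. No paired analysis was possible because each group has 1 library and no test was made. The unknown depth and the absence of repeated libraries limit every single value.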

Other observations

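Enzymes of lipid mediators were higher on the bleeding side in part. Hpgds, the prostaglandin D synthase of leukocytes, stood at 7.09 and 1.22 RPKM (a log2 ratio after adding 1 RPKM of 1.87), Alox5ap, which hands arachidonic acid to 5-lipoxygenase, at 14.5 and 4.42 RPKM (1.51), and Pla2g4a, which frees it from membranes, at 7.89 and 2.32 RPKM (1.42). Ptgs2, the inducible cyclooxygenase, stood at 5.88 and 5.1 RPKM (0.17), so that it was not high beside its neighbours in the pathway. Of 25 genes listed 16 were measured and 7 were at 1 or more, beside 5.61% of all genes, with a median of 0.70. The median for polyamine, tryptophan and one-carbon metabolism was 0.36 over 20 genes. Oaz1, the antizyme that limits polyamines, stood at 164 and 72.5 RPKM (1.17), against a ratio of 0.17 at 13 months, and Qprt, which breaks down the neurotoxic tryptophan product quinolinic acid, at 3.6 and 1.19 RPKM (1.07).

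Trophic factors had a median of 0.10 over 27 genes. Grn, the secreted progranulin of microglia, stood at 91.3 and 25.5 RPKM (1.80) and was the highest of them. Bdnf was at -0.34 and Vegfa at -0.08. Axon guidance genes had a median of -0.01 over 42, and Plxnb2, a semaphorin receptor, was highest at 21.4 and 9.73 RPKM (1.06). With 1 gene at 1 or more in each list, their shares are near the 5.61% of all genes. The 18 circadian clock genes lay around a median of -0.07, against -0.28 at 13 months. The proteasome had a median of 0.19 over 37 genes, and its 3 genes at 1 or more were the immune subunits Psmb8 (1.15) and Psmb9 (1.08) and the activator Psme1 (1.06).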
